A study of Mus musculus with 6 samples.

Results

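A set of 10 genes best known from cartilage was followed in RNA of mouse tooth germs. It holds Sox9, Sox5, Sox6, Acan, Matn1, Matn3, Hapln1, Comp, Lect1 and 3110079O15Rik, chosen by name as 10 of the 23420 gene symbols in the count tables. The samples were tooth germs of C57BL/6 embryos at embryonic stage E15.5, in 3 Smad7-/- libraries and 3 wild-type (WT) libraries. The product of Smad7 dampens signals of the TGF-beta and BMP families inside the cell. The labels neither describe the allele nor say whether animals were pooled or whether each library had its own animal. A p-value therefore reflects the scatter of these 6 libraries, which may be technical. Sequencing depth was 37591888 to 56575476 counts in the Smad7-/- libraries and 47800685 to 52137318 counts in the WT libraries. The Smad7 gene itself had 80, 62 and 41 counts in the Smad7-/- libraries, against 1097, 934 and 859 counts in the WT libraries, so each library matched its genotype label. Markers of dental epithelium and of dental mesenchyme, 8 of each, were all detected.

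Cartilage is built by chondrocytes, which arise from condensed mesenchyme. In chondrocytes the transcription factor SOX9 works with SOX5 and SOX6 to switch on the genes of the cartilage matrix. That matrix is a collagen network filled with aggrecan, a very large proteoglycan that holds water. Link protein ties aggrecan to hyaluronan, and matrilins and thrombospondin family proteins bridge it to collagen fibres. In the embryonic jaw, cartilage lies close to the developing molars, while the tooth germ itself consists of dental epithelium and neural crest mesenchyme. Several of the 10 genes are also used outside cartilage, Sox9 in many epithelia and neural crest derivatives, Sox6 in muscle and red cell precursors, and Comp in tendon.

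The 10 genes differed widely in level and detection in these dissections. Of these, 5 had a mean of at least 1 CPM over the 6 libraries (CPM, counts scaled to a common library size), namely Sox9, Hapln1, Sox6, Acan and Sox5. Matn3, Comp and Lect1 were at trace levels, and Matn1 and 3110079O15Rik had no count in any of the 6 libraries. A list of 16 cartilage markers holds these 10 genes, so it is no independent check of their label. Of its 6 other genes, Col11a2, Col9a3, Col9a2, Col2a1 and Col9a1 were detected and Ucma, a gene of chondrocytes, was at 0 throughout. Because detection was mixed, the 10 genes are called here the cartilage-associated genes. In RNA of whole tissue, fewer cells of a type and less RNA per cell cannot be told apart.

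**Figure D1:**
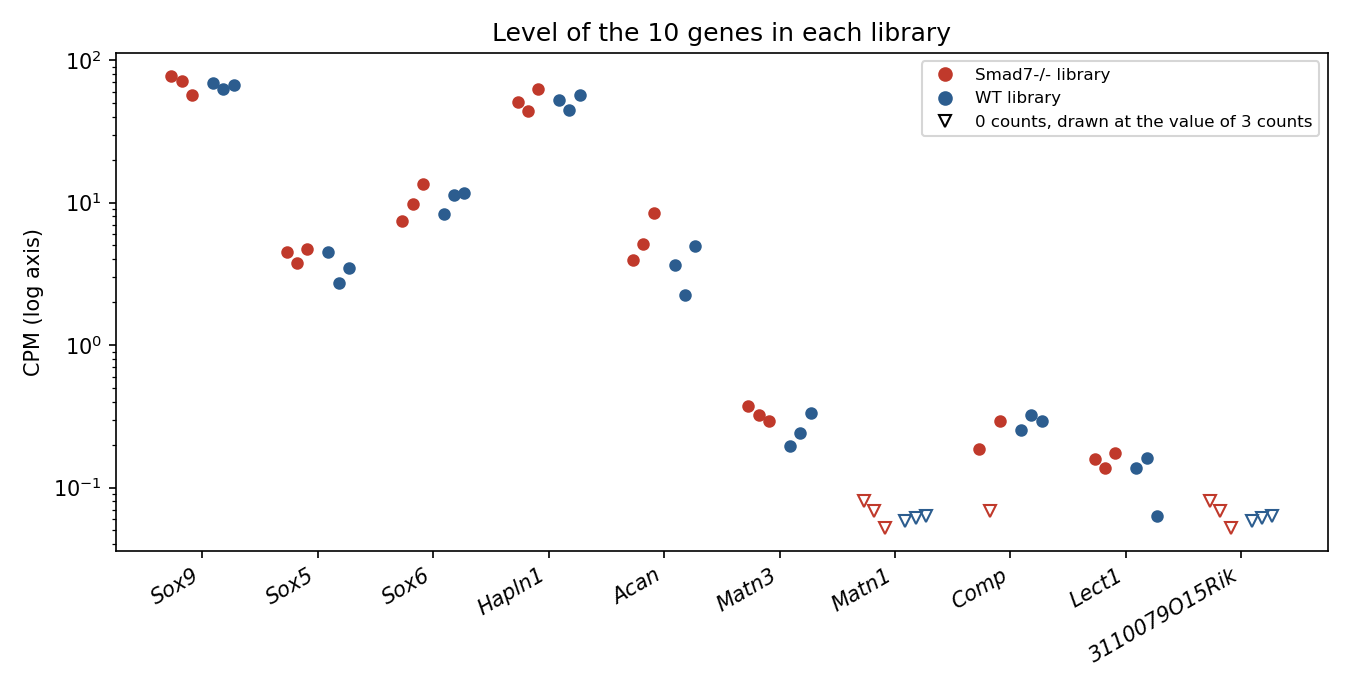
Level of each of the 10 genes in CPM (vertical axis, log scale) in the 3 Smad7-/- libraries and the 3 WT libraries, 1 point per library. Open triangles mark a library with 0 counts and stand at the CPM that 3 counts would give there; Sox9 and Hapln1 lie highest, and Matn1 and 3110079O15Rik are at 0 in all 6 libraries.

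Counts were high enough to test 7 of the 10 genes, and 0 were called by edgeR's quasi-likelihood test at an adjusted p under 0.05. Among all 15284 genes tested, 0.0262% were called, 4 genes, with 0.0131% called as higher and 0.0131% as lower. At an unadjusted p under 0.05 edgeR gave 0 of the 7 genes, beside 5.14% of all genes tested, 3.26% higher and 1.88% lower. DESeq2 called 0 of the 8 genes it gave an adjusted p, beside 0.351% of all genes, with 1 of the 8, Acan, under 0.05 unadjusted. The ranges of the genotypes overlapped for all 7 genes, while they were apart for 8.88% of all genes tested. The 7 log2 fold changes had a median of 0.05, against 0.00 (-0.0028) over all genes.

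Sox9, the transcription factor that starts and maintains the chondrocyte programme, lies on chromosome 11 at 112782224 to 112787760 (mm10, GENCODE M21, forward strand). It was at 77.7, 70.8 and 57.1 CPM in the Smad7-/- libraries and at 69.0, 62.3 and 66.5 CPM in the WT libraries. The Smad7-/- libraries held both the highest and the lowest value. The means were 68.5 ± 10.5 CPM in Smad7-/- and 66.0 ± 3.37 CPM in WT (SD, n = 3 libraries each). The log2 fold change was 0.05 ± 0.12 (SE), with a 95% interval from -0.21 to 0.32 (edgeR adjusted p = 1.00).

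Sox5 and Sox6 encode closely related SOX proteins that lack an activation domain of their own and assist SOX9 in chondrocytes. Sox5, on chromosome 6 at 143828425 to 144781977 (reverse strand), was at 4.47, 3.77 and 4.69 CPM in Smad7-/- and at 4.49, 2.71 and 3.48 CPM in WT. One WT library overlapped the Smad7-/- values and the other two lay below them. The log2 fold change was 0.28 ± 0.23 (SE), with a 95% interval from -0.23 to 0.78 (edgeR adjusted p = 1.00). Exons of the antisense gene Sox5os1 cover 1330 bases, 9.25%, of the exons of Sox5, and the library kit does not record strand, so reads there cannot be told apart.

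Sox6, on chromosome 7 at 115470872 to 116038796 (reverse strand), was at 7.37, 9.78 and 13.5 CPM in Smad7-/- and at 8.33, 11.3 and 11.7 CPM in WT. The WT values lay inside the Smad7-/- range. The log2 fold change was -0.03 ± 0.22 (SE), with a 95% interval from -0.53 to 0.48 (edgeR adjusted p = 1.00). Without Smad7-/- library 3 it was -0.28, and without Smad7-/- library 1 it was 0.16, so its sign depended on single libraries.

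Hapln1 encodes cartilage link protein, which clamps aggrecan and its relative versican onto hyaluronan. The gene lies on chromosome 13 at 89539796 to 89611652 (forward strand). It was at 50.5, 43.9 and 63.1 CPM in Smad7-/- and at 52.3, 44.7 and 56.8 CPM in WT. Again the WT values lay inside the Smad7-/- range. The means were 52.5 ± 9.76 CPM in Smad7-/- and 51.2 ± 6.15 CPM in WT (SD, n = 3 libraries each). The log2 fold change was 0.04 ± 0.14 (SE), with a 95% interval from -0.28 to 0.35 (edgeR adjusted p = 1.00). For Sox9 and Hapln1, the most abundant of the 10 genes, these intervals are the narrowest of the 7.

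Acan encodes aggrecan, the main proteoglycan of cartilage, and lies on chromosome 7 at 79053483 to 79115099 (forward strand). Reads per library numbered 149, 224 and 486 in the Smad7-/- libraries and 187, 111 and 236 in the WT libraries. Scaled to depth these were 3.97, 5.15 and 8.44 CPM in Smad7-/- and 3.65, 2.24 and 4.94 CPM in WT. Smad7-/- library 3 stood above the rest and WT library 2 below them, and the genotypes overlapped. The log2 fold change was 0.70 ± 0.34 (SE), 1.63-fold, with a 95% interval from -0.06 to 1.47 (edgeR unadjusted p = 0.0680, adjusted p = 0.995).

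Without Smad7-/- library 3 the log2 fold change of Acan was 0.34, without WT library 2 it was 0.45, and without WT library 3 it was 1.00. None of these fits called it, with adjusted p of 0.784, 1.00 and 0.694. Without Smad7-/- library 1 its log2 fold change was 0.91, also not called (edgeR adjusted p = 0.9999). Over all 13 alternatives in which it was fitted, Acan stayed on the positive side, with edgeR, DESeq2 or voom adjusted p from 0.432 to 1.00. Its spread within genotypes was 0.56 on the log2 scale, larger than that of 92.4% of all genes tested. Of 11 marker lists, that of 6 endothelial genes, all 6 detected, is given here because its sum had the same extremes, a choice made after the values were seen. Its summed level was lowest in WT library 2, at 226 CPM, and highest in Smad7-/- library 3, at 359 CPM. That sum ran from 316 to 359 CPM in Smad7-/- and from 226 to 343 CPM in WT. All 6 were lowest in WT library 2, while 3 were highest in Smad7-/- library 3 and 3, Pecam1, Tie1 and Emcn, in Smad7-/- library 2. Its part in the values of Acan was not tested.

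The trace genes rest on few reads. Matn3, a matrilin of growth plate cartilage, lies on chromosome 12 at 8947929 to 8972028 (forward strand). It had 14, 14 and 17 counts in Smad7-/- and 10, 12 and 16 counts in WT, with a log2 fold change of 0.35 ± 0.43 (SE; edgeR adjusted p = 1.00). Comp, a thrombospondin family protein of cartilage and tendon also called thrombospondin 5, lies on chromosome 8 at 70373558 to 70382066 (forward strand). It had 7, 0 and 17 counts in Smad7-/- and 13, 16 and 14 counts in WT. Only Smad7-/- library 2 had none, and library 3 of the same genotype had the most reads. The log2 fold change of Comp was -0.79 ± 0.75 (SE; edgeR adjusted p = 1.00), and without Smad7-/- library 2 it was -0.24 and without Smad7-/- library 3 it was -1.68.

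Lect1, now named Cnmd, encodes chondromodulin, a membrane protein of chondrocytes that inhibits blood vessel growth. It lies on chromosome 14 at 79637690 to 79662170 (reverse strand). It had 6, 6 and 10 counts in Smad7-/- and 7, 8 and 3 counts in WT, which was too low to pass the filter, so it was not tested. All 3 trace genes stayed under 0.4 CPM, where 1 read was worth 0.0174 to 0.0266 CPM in Smad7-/- and 0.0195 to 0.0209 CPM in WT.

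**Figure D2:**
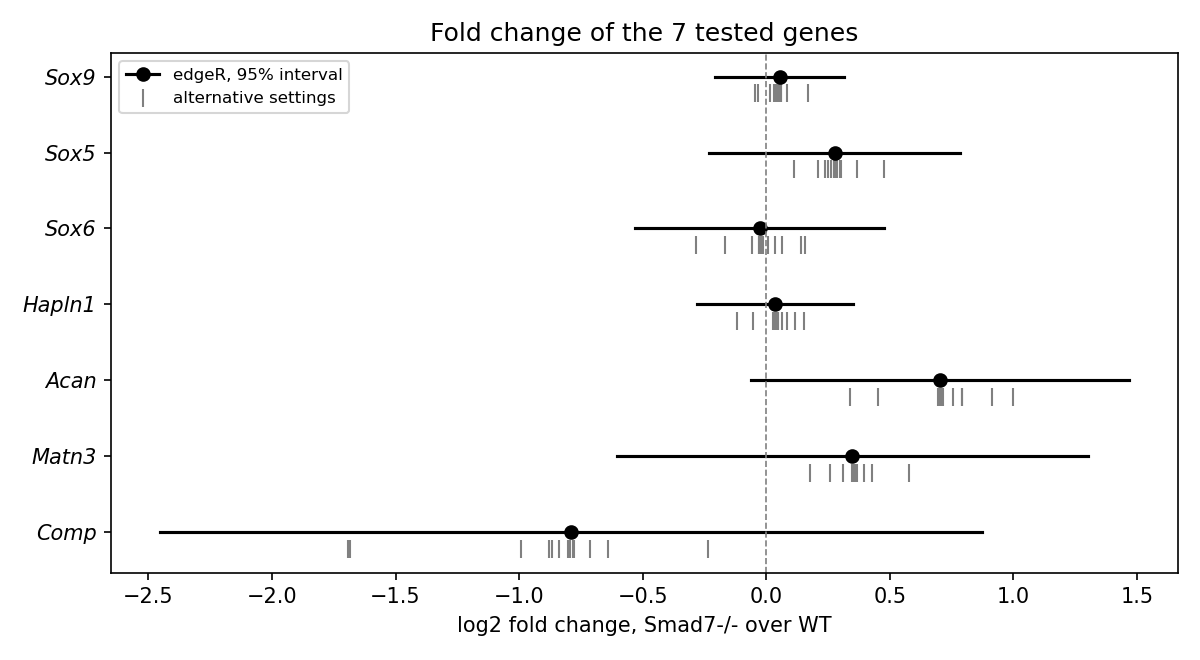
Log2 fold change of Smad7-/- over WT (horizontal axis) for the 7 tested genes. Points are the edgeR estimates with their 95% intervals, and grey ticks are the values under alternative settings; every interval includes 0, and those of Sox9 and Hapln1 are the shortest.

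Matn1 and 3110079O15Rik were at 0 in every library, 0 of 287038177 counts in all. A count of 0 allows up to 3 counts, which is 0.0521 to 0.0799 CPM in a Smad7-/- library and 0.0585 to 0.0628 CPM in a WT library, for counting error only. Matn1 encodes the founding matrilin, cartilage matrix protein, and lies on chromosome 4 at 130944385 to 130955475 (forward strand). 3110079O15Rik, now named Snorc, encodes a small membrane proteoglycan of chondrocytes and lies on chromosome 1 at 87470271 to 87475482 (forward strand). No exon of either gene overlaps that of another gene in GENCODE M21, and none of their 1952 and 671 distinct 50-base words occurs in a transcript of another gene. The alpha-globin genes Hba-a1 and Hba-a2, also at 0 in all 6 libraries, share 72.3% and 89.3% of such words with other genes, while Ucma, also at 0, shares 0%. How reads matching more than 1 gene were counted is not stated, so the cause of these zeros was not tested. A 0 in these tables is not always an absent transcript: Rpl26, a ribosomal protein gene that every cell uses, was at 0 throughout, with 22.7% of its words shared. In all, 4415 symbols, 18.9%, had no count in any library.

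The promoters of Acan and of the matrilin pair are shown because these matrix genes differ from 0 to several CPM in the same RNA. Of the 10 genes 7 had a promoter window, and 3 are printed. Each line holds the 250 bases before the RefSeq start (GRCm38.p6, forward strand, 5′ to 3′), with CG dinucleotides in capitals, for Acan at chr7:79052976-79053225, Matn3 at chr12:8947679-8947928 and Matn1 at chr4:130944135-130944384.
Acan: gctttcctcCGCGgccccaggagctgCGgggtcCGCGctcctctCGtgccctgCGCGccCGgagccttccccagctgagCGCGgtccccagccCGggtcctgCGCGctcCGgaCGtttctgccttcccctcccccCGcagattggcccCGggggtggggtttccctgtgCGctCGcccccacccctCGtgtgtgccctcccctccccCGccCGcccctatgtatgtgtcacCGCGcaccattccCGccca
Matn3: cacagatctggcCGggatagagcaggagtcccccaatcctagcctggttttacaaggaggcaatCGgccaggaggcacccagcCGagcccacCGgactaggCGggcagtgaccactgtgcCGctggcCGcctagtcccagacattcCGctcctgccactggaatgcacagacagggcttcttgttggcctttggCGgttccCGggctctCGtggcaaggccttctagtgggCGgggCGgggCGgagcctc
Matn1: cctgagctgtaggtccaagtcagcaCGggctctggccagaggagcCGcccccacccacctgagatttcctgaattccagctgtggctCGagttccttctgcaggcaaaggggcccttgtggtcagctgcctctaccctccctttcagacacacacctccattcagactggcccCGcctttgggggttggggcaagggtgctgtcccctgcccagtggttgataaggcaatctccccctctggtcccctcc
The Acan window holds 26 CG dinucleotides, the Matn3 window 14 and the Matn1 window 4, against a median of 6 over all 32851 promoter windows of this length. Among the windows not printed, that of Hapln1, a matrix gene at a higher level than Acan, holds 2. That of Sox5 holds 3, that of Lect1 0 and those of Sox6 1 to 10. In GC content these windows had 74.4%, 65.2% and 62.0%, against a median of 52.4%. The SOX core ACAAT, searched on both strands, is in none of the 3 windows and in 27.7% of all windows. The longer SOX-like word ACAAAG is in none of the 3 and in 16.5% of all, and the TATA box word TATAAA is in none of the 3 and in 12.4% of all. Among the windows not printed, ACAAT is in those of Sox5 and Hapln1 and in 3 of the 6 of Sox6. ACAAAG is in 5 of the 6 of Sox6, TATAAA in 1 of them, and none of these words is in that of Lect1. These counts describe the letters in these windows.

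Levels of different genes were compared per kilobase of exon. Sox9 came first, with 16.6 ± 2.54 CPM per kilobase in Smad7-/- and 15.9 ± 0.815 in WT (SD, n = 3 libraries each). Hapln1 followed with 8.90 ± 1.65 CPM per kilobase in Smad7-/- and 8.68 ± 1.04 in WT. The 6 libraries of Sox9 all lay above those of Hapln1, and those of Hapln1 all above those of the next gene.

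Sox6, at 0.689 ± 0.208 CPM per kilobase in Smad7-/- and 0.704 ± 0.124 in WT, and Acan, at 0.783 ± 0.310 in Smad7-/- and 0.484 ± 0.181 in WT, overlapped across libraries. Acan also overlapped Sox5, at 0.300 ± 0.0333 CPM per kilobase in Smad7-/- and 0.247 ± 0.0620 in WT. Sox5 stood above Matn3 in all libraries, while Matn3, Comp and Lect1 overlapped each other at means of 0.0541 to 0.109 CPM per kilobase. For Sox5 and Sox6, whose exons add up to more than any one transcript, the length of the longest transcript raised the means. They became 0.595 in Smad7-/- and 0.491 in WT for Sox5 and 1.18 in Smad7-/- and 1.20 in WT for Sox6. Neither Sox6 and Acan nor Acan and Sox5 came apart with that length. The means of Comp rose as well, to 0.0664 in Smad7-/- and 0.120 in WT, and those of Lect1 to 0.110 in Smad7-/- and 0.0840 in WT. Comp and Lect1 then changed places in the order of levels, but still overlapped.

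Sox9 ranked above 86.1% of all symbols per kilobase, or level with them, and Hapln1 above 76.3%. Acan was at 46.2%, Sox6 at 46.8%, and Sox5 at 40.9%. Matn3, Comp and Lect1 were at 33.7% to 34.9%.

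A second list of 28 other cartilage genes also spanned a wide range of levels. Of these, 23 were tested and 0 were called by edgeR, with 3 at an unadjusted p under 0.05, beside 5.14% of all genes tested, and a median log2 fold change of 0.00 (-2.05e-04). DESeq2 also called 0, of 24. The 4 most abundant in CPM were Col11a1 and Col11a2, chains of the collagen that nucleates cartilage fibrils, Susd5, a membrane protein with a link domain, and Matn4, a matrilin also found outside cartilage. Col11a1 was at 476 ± 90.3 CPM in Smad7-/- and 465 ± 87.0 CPM in WT (SD, n = 3 libraries each). Their log2 fold changes were 0.04 ± 0.16 for Col11a1, -0.11 ± 0.18 for Col11a2, -0.20 ± 0.10 for Susd5 and -0.15 ± 0.10 (SE) for Matn4.

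Other members of that list, named after their values were seen, set the 10 genes in context. Col2a1, the major collagen of cartilage, was at 15.6 ± 2.96 CPM in Smad7-/- and 17.8 ± 2.59 CPM in WT (SD, n = 3 libraries each). Per kilobase that was 1.69 in Smad7-/- and 1.93 in WT, above Acan but below Hapln1. Of the collagen IX chains, Col9a3 was at 60.5 CPM per kilobase in Smad7-/- and 65.8 in WT, whereas Col9a1 was at 0.128 in Smad7-/- and 0.107 in WT. Col10a1 and Ihh, which mark maturing chondrocytes, were at 0.116 and 0.0967 CPM per kilobase in Smad7-/- and at 0.114 and 0.0634 in WT. The levels of Matn3, Comp and Lect1 were thus near those of Col9a1, Col10a1 and Ihh.

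Among the 3 of the list with an unadjusted p under 0.05, Pth1r, the receptor for parathyroid hormone and its related peptide, had the smallest adjusted p. It was at 35.9, 31.8 and 32.7 CPM in Smad7-/- and at 24.1, 21.2 and 29.8 CPM in WT, and the genotypes did not overlap (log2 0.42 ± 0.13 SE, edgeR adjusted p = 0.766). Ranges lay apart on the higher side for 4.97% of all genes tested. Col9a2 stood at 0.55 ± 0.20 and Chst3, a sulfotransferase of chondroitin chains, at -0.50 ± 0.20 (log2, SE), with edgeR adjusted p of 0.827 and 0.898.

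**Figure D3:**
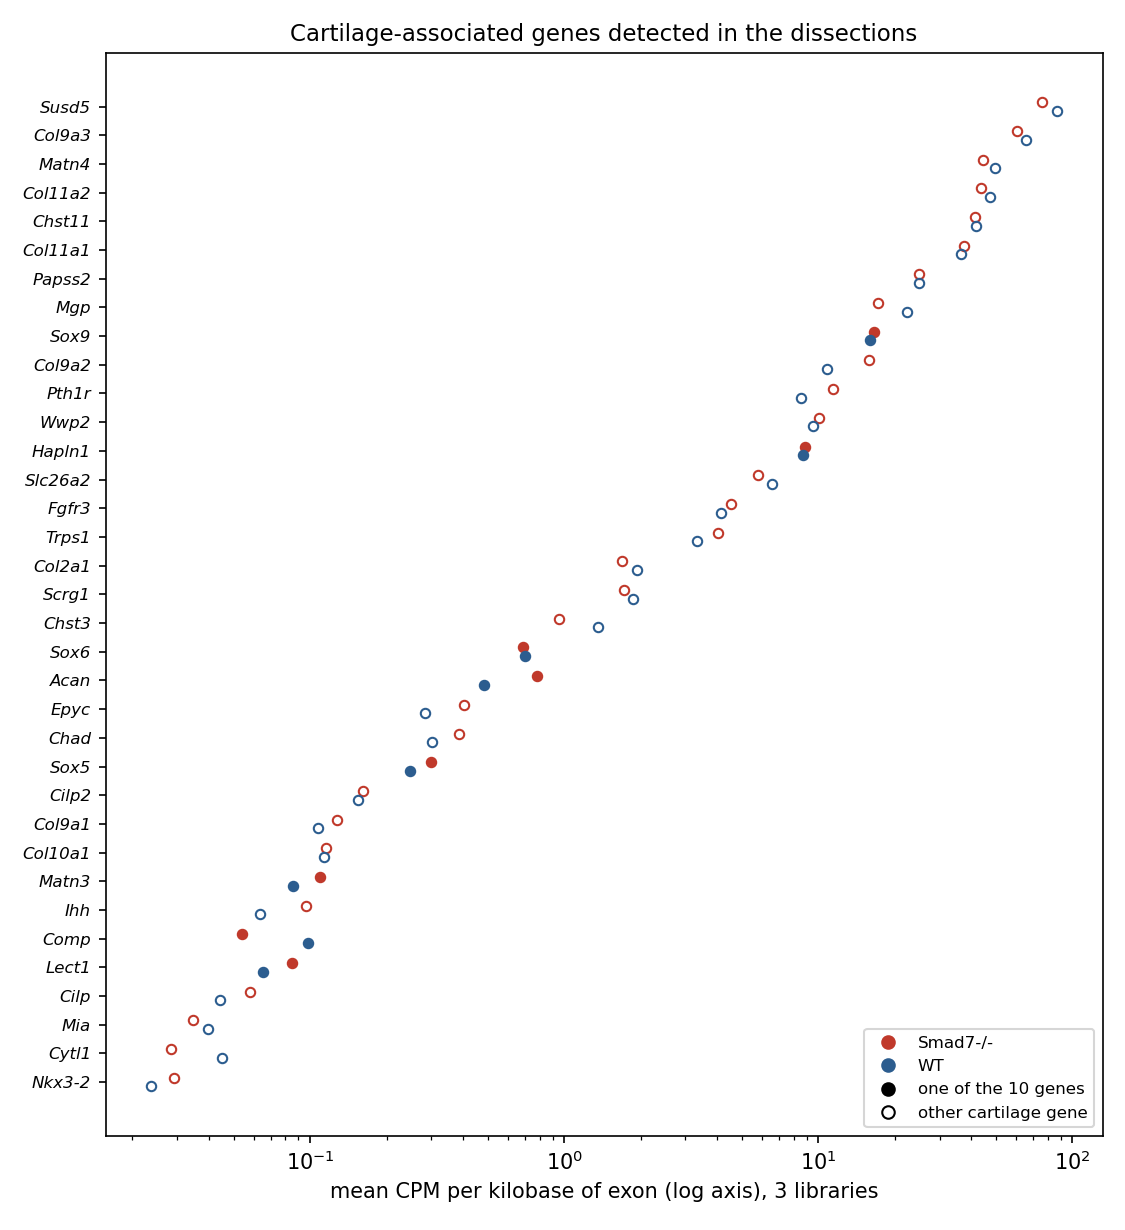
Mean level in CPM per kilobase of exon (horizontal axis, log scale) of the cartilage-associated genes detected, with Smad7-/- above WT in each row, as means of 3 libraries. Filled points are among the 10 genes and open points come from the list of other cartilage genes; Susd5 and Col9a3 lie highest, Sox9 and Hapln1 below them, and Matn3, Comp and Lect1 near Ihh and Col10a1. Matn1, 3110079O15Rik and Ucma were at 0 and are not drawn.

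Relatives of the 10 genes by family lay above the cartilage member in some families and below it in others. In the matrilin family Matn4 was at 44.6 CPM per kilobase in Smad7-/- and 49.6 in WT and Matn2 at 5.91 in Smad7-/- and 5.73 in WT. Matn3 was at 0.109 in Smad7-/- and 0.0855 in WT, and Matn1 was at 0. Among the large hyaluronan-binding proteoglycans, Vcan, versican of loose embryonic matrix, was at 39.1 CPM per kilobase in Smad7-/- and 39.7 in WT. Acan was at 0.783 in Smad7-/- and 0.484 in WT, Bcan, brevican, at 1.18 in Smad7-/- and 1.40 in WT, and Ncan, neurocan, at 0.0182 in Smad7-/- and 0.0196 in WT. Among link proteins, Hapln1 was the most abundant, followed by Hapln3 at 2.48 CPM per kilobase in Smad7-/- and 1.99 in WT. In the SOX family Sox9 lay far above its relatives Sox10, at 0.419 CPM per kilobase in Smad7-/- and 0.234 in WT, and Sox8, at 0.0968 in Smad7-/- and 0.110 in WT. Sox13, the relative of Sox5 and Sox6, was above both, at 3.68 in Smad7-/- and 3.73 in WT.

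In the thrombospondin family Comp was the lowest. Thbs2, a thrombospondin of mesenchyme, was at 133, 126 and 129 CPM in Smad7-/- and at 94.97, 85.5 and 98.1 CPM in WT, and the genotypes did not overlap. Its log2 fold change was 0.48 ± 0.09 (SE), which did not pass over all genes (edgeR adjusted p = 0.383). Of the 16 relatives 14 were tested and 0 were called by edgeR, with 4 at an unadjusted p under 0.05, all on the higher side, beside 3.26% of all genes on that side. The other three of these, named like Matn2, Bcan, Ncan, Hapln3, Sox8 and Sox13 after their values were seen, were Thbs4, Tnmd, the tendon relative of Lect1, and Sox10, a neural crest glia factor related to Sox9. They stood at 0.42 ± 0.14, 0.53 ± 0.19 and 0.85 ± 0.34 (log2, SE). Thbs1, the fourth most abundant relative, was at -0.37 ± 0.42, Matn4 at -0.15 ± 0.10 and Vcan at -0.02 ± 0.13 (log2, SE). The median over the tested relatives was -0.02.

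The enzymes that build chondroitin sulfate and hyaluronan, the sugars that aggrecan carries and binds, were broadly present. Of 22 such genes 21 were tested and 0 were called by edgeR, with 2 at an unadjusted p under 0.05, beside 5.14% of all genes tested, and a median log2 fold change of -0.02. The most abundant were Chst11, a chondroitin sulfotransferase, Has3, a hyaluronan synthase, Ugdh, which makes their shared sugar precursor, and Chpf2, a chondroitin polymerase subunit. Chst11 was at 228 ± 4.13 CPM in Smad7-/- and 232 ± 9.14 CPM in WT (SD, n = 3 libraries each), with a log2 fold change of -0.02 ± 0.08 (SE). Has3, Ugdh and Chpf2 were at -0.11 ± 0.21, 0.11 ± 0.12 and 0.01 ± 0.09 (log2, SE).

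The 6 libraries also differed among themselves apart from genotype. On the first principal component of all tested genes, which held 33.5% of the variance, Smad7-/- libraries 1 and 2 and WT library 1 lay at -32.3 to -15.2. Smad7-/- library 3 and WT libraries 2 and 3 lay at 14.995 to 25.2. The labels name no batch for this division. Sox9 was at 69.0 to 77.7 CPM on the first side and at 57.1 to 66.5 CPM on the second. Sox6 ran the other way, at 7.37 to 9.78 CPM on the first side and at 11.3 to 13.5 CPM on the second. Comp was also apart, at 0 to 0.254 CPM on the first side and at 0.293 to 0.324 CPM on the second, on at most 17 counts a library. The other detected genes of the 10 overlapped between the sides. Because the sides were drawn from these same expression values, genes apart between them arise by construction. Their share over all genes was not counted, so whether the separation is particular to Sox9, Sox6 and Comp cannot be said. With the side as a covariate the log2 fold changes were -0.03 for Sox9, 0.14 for Sox6 and 0.79 for Acan, and 0 of the 7 genes were called by edgeR.

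Smad7-/- library 3 was the highest library for 5 of the 8 detected genes, Sox5, Sox6, Acan, Hapln1 and Lect1, and the lowest for Sox9. The share of all genes highest in that library was not counted, so 5 of 8 is not shown to be particular to these genes. WT library 2 was the lowest for Sox5 and Acan. The ratio of the highest to the lowest library was 1.36 for Sox9, 1.44 for Hapln1, 1.73 for Sox5, 1.83 for Sox6 and 3.76 for Acan. Sox9 and Sox6, partners in chondrocytes, thus had opposite extremes in the same pair of Smad7-/- libraries, with Sox9 highest and Sox6 lowest in library 1 and the reverse in library 3.

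**Figure D4:**
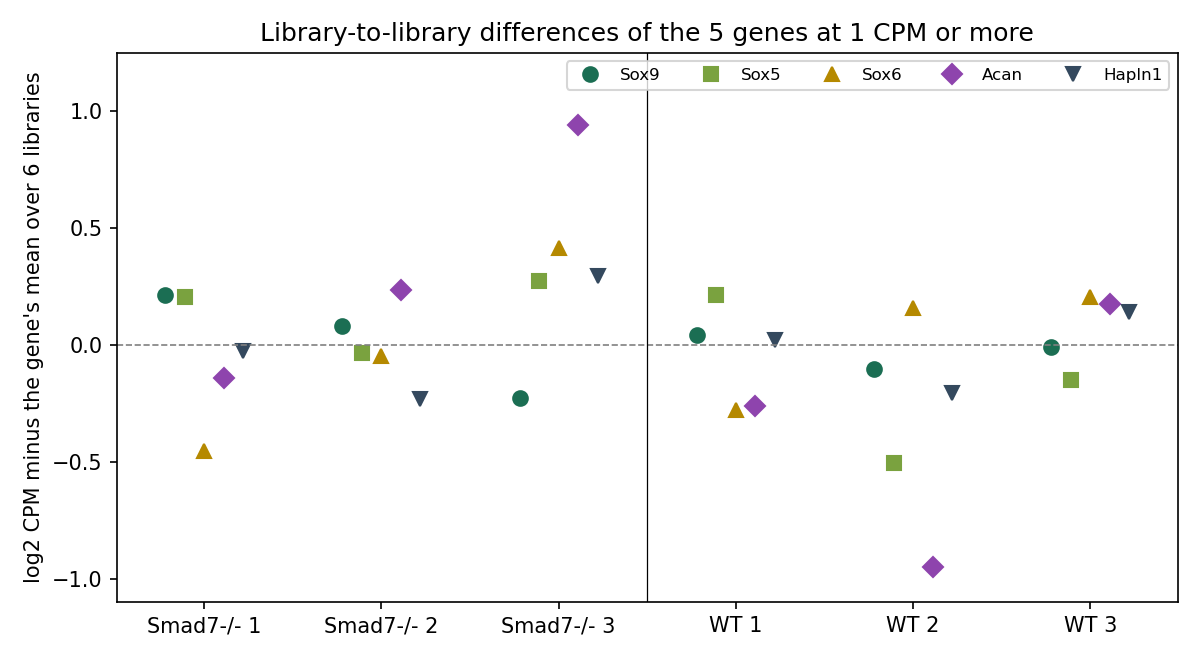
Log2 CPM of the 5 genes at a mean of at least 1 CPM, each minus its own mean over the 6 libraries (vertical axis), by library, with the 3 Smad7-/- libraries left of the 3 WT libraries. Acan spreads most, from -0.95 in WT library 2 to 0.94 in Smad7-/- library 3, and Sox9 is the gene that is lowest in Smad7-/- library 3.

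The mean centred profile of these 5 genes was 0.34 in Smad7-/- library 3 and -0.32 in WT library 2, and between -0.05 and 0.07 in the other four (log2). The genes whose profiles lay nearest to it were sought among 11230 others with a mean of at least 5 CPM, by root mean square distance over the 6 libraries. They were Fads3, a fatty acid desaturase family member, Sh3bgrl, Nrp1, a co-receptor for semaphorins and VEGF, Kdelc2, and Bmper, a secreted BMP-binding protein. Their distances were 0.0365 to 0.0503 (log2), against a median of 0.240 over all genes compared. Of the 5 genes themselves only Hapln1, at 0.115, and Sox5, at 0.192, were nearer than that median, with Sox9 at 0.276, Sox6 at 0.283 and Acan at 0.382. Each of the 5 is part of the mean profile, so their distances are not directly comparable with that median. Acan lay furthest out in both extreme libraries, at 0.94 in Smad7-/- library 3 and -0.95 in WT library 2, and so weighed most in the profile there. With 6 libraries and 11230 genes some profiles lie close to any other, so the 5 names describe these libraries only.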

How the data were processed

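RNA was purified on RNeasy columns and TruSeq RNA libraries were prepared, per the labels' protocols. Per the submitters' processing notes, reads were aligned with HISAT2 to mm10 and counted with featureCounts, with DESeq2 also named and no versions. What the authors deposited are raw counts for each gene symbol, without normalization. The members and gene lists were chosen with earlier results of these data known.

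Counts of 23420 symbols (27 turned into dates) went through filterByExpr with a minimum count of 10 and a minimum total of 15, which left 15284, and scaled by TMM. The test was edgeR 4.0.16 (R 4.3.3), robust quasi-likelihood, Smad7-/- against WT, 3 libraries each, with no covariate and Benjamini-Hochberg adjustment over all tested genes. It was tested on simulated data. Log2 CPM used a prior count of 2. Libraries of a genotype differed far beyond counting noise (chi-square per degree of freedom of at least 28.5), so none was merged. Alternatives were DESeq2 1.42.0, limma-voom 3.58.1, other size factors and filters, a replicate block, a covariate and leaving out each library. Exon lengths came from GENCODE M21 (98.2% of symbols matched, older symbols by RefSeq synonyms), promoters from RefSeq.

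The rule for named genes took Smad7, the 10 genes, the 4 most abundant of each of 3 gene lists, and the 5 nearest profiles; any further gene was named after its values were seen, and 11 marker lists are given as sums. Figures used matplotlib 3.10.9.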

Additional observations from a re-analysis of the deposited data

How the results depend on the processing

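Of the 10 genes 0 were called under each of the 14 alternatives, and of the other cartilage genes 0 likewise. The median log2 fold change of that list lay between -0.07 and 0.07 over the genes each alternative fitted, and at 0.05 at most over the 23 genes tested. The count of all genes called, 4, became 59 with DESeq2 on all symbols and 2 under a 5 CPM minimum on the mean, and ran from 1 to 7 without 1 library (2 without Smad7-/- library 1, 1 without Smad7-/- library 2, 7 without Smad7-/- library 3). Smad7 missed the threshold without Smad7-/- library 2 (-3.83, edgeR adjusted p = 0.0887). Of 94 refitted log2 fold changes of the 7 tested genes 85 kept their direction and side of the threshold and 9 changed sign, none of them called. With the side of the first component as a covariate these were Sox9 at -0.034 and Sox6 at 0.14. Without 1 library they were Sox9 at -0.045 (Smad7-/- library 1) and Hapln1 at -0.12 (Smad7-/- library 3) and -0.054 (WT library 2). Sox6 was at 0.16 and 0.0089 without Smad7-/- libraries 1 and 2, and at 0.034 and 0.064 without WT libraries 2 and 3. Over all such fits without 1 library Sox9 reached 0.17 at most, Sox6 -0.28 at least and Hapln1 0.15 at most. The cause of these changes was not tested. The replicate number as a block left 4 genes called and 0 of the 10. Genes at an edgeR unadjusted p under 0.05 went from 786 to 1210 with that block. The SE of Acan went from 0.34 to 0.22, with an edgeR adjusted p of 0.432. With that block 1 of the 7 tested genes, Acan, had an edgeR unadjusted p under 0.05. The same held with the side as a covariate, without Smad7-/- library 1 and without WT library 3. Over all genes these 3 fits gave 991, 555 and 917 at that threshold. Libraries of the same number correlated at 0.169, -0.034 and 0.093 in their deviations, and 1 of the 3 Smad7-/- libraries matched its own number best. With so few libraries these values cannot decide whether the numbers pair the libraries. At trace levels depth limits what can be seen: 3 counts were worth 0.0521 to 0.0799 CPM.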

Other observations

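Markers of the other cell types in the dissection were summed per library in CPM. The sums are not scaled to gene length or list size, so they do not measure the share of each cell type. Dental epithelium markers, 8 of 8 detected, had the largest sum, at 8418 to 10066 CPM in Smad7-/- and 9840 to 10865 CPM in WT. Krt5, Sp6 and Krt14 made up most of it. Bone markers, 10 of 10, reached 1625 to 1914 CPM in Smad7-/- and 1456 to 2073 CPM in WT, and the 16 cartilage markers 736 to 749 CPM in Smad7-/- and 642 to 892 CPM in WT, mostly Col11a2 and Col9a3. Dental mesenchyme markers, 8 of 8, were at 486 to 519 CPM in Smad7-/- and 406 to 479 CPM in WT, and macrophage markers, 6 of 6, at 146 to 155 CPM in Smad7-/- and 84.3 to 117 CPM in WT, with no overlap for either. The largest part of the mesenchyme sum, Dlx2, went the other way, at means of 220 CPM in Smad7-/- and 234 CPM in WT. Its log2 fold change was -0.09 ± 0.14 (SE), while those of the other 7 were positive. Red blood cell markers, 6 of 9 detected with Hba-a1, Hba-a2 and Hbb-b1 at 0, were at 17.04 to 30.1 CPM in Smad7-/- and 37.7 to 52.4 CPM in WT. Skeletal muscle markers, 8 of 8, were at 4.74 to 6.16 CPM in Smad7-/- and 6.59 to 8.08 CPM in WT, and neither the red blood cell nor the muscle list overlapped between genotypes. Neb, with the highest mean of the muscle list, went the other way, at 3.39 CPM in Smad7-/- and 2.77 CPM in WT. The other 5 tested muscle genes had negative log2 fold changes. Ranges of single genes lay apart for 8.88% of all genes tested, and no such share was computed for summed lists. Tendon and ligament markers, 7 of 7, stood at 130 to 152 CPM in Smad7-/- and 102 to 134 CPM in WT, Schwann cell markers, 6 of 6, at 101.2 to 111 CPM in Smad7-/- and 90.3 to 118 CPM in WT, and neuron markers, 6 of 6, at 278 to 348 CPM in Smad7-/- and 321 to 362 CPM in WT. The Schwann cell sum was mostly Mbp, at a mean of 79.6 CPM over the 6 libraries. The neuron sum was mostly Tubb3 and Stmn2, and the means of Elavl4, Nefl, Isl1 and Elavl3 were only 0.0471 to 0.629 CPM. A marker counted as detected may rest on few reads, such as Myod1 of the muscle list, at a mean of 0.0274 CPM. In none of these lists did edgeR call a gene over all genes tested; at an unadjusted p under 0.05, 3.26% of all genes tested were higher and 1.88% lower. On the higher side were 5 of 8 tested dental mesenchyme genes, 6 of 6 macrophage, 2 of 6 tendon and ligament, 2 of 10 bone, 1 of 6 Schwann cell and 1 of 12 cartilage genes. Some genes are counted in more than 1 list. Thbs4 and Tnmd, the 2 of tendon and ligament, and Sox10, of Schwann cells, are also among the relatives by family. Col9a2, of the cartilage markers, and Chst3, of the chondroitin list, are also among the other cartilage genes. On the lower side were 4 of 6 red blood cell, 2 of 6 skeletal muscle and 2 of 8 dental epithelium genes, and the endothelial and neuron lists had 0 on either side. Their part in the levels of the 10 genes was not tested.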
